A study of Homo sapiens with 12 samples.

Results

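The alpha-arrestins TXNIP, ARRDC1, ARRDC2, ARRDC3, ARRDC4 and ARRDC5 and the transcription factor subunits MLX and MLXIP were followed in messenger RNA from Jurkat cells, a leukaemia line of human T cells. These 8 genes were picked out of 33704 gene identifiers, chosen by their fold changes in the libraries labelled TAL1 knockdown, where family members went in opposite directions. Their values in that comparison are therefore given as a description, without a test. The other comparisons were outside that choice and were tested. The study held 12 libraries in 6 groups of 2. Jurkat cells with a doxycycline-inducible shRNA against TAL1 were left without doxycycline (TAL1-control) or given 5 µg/ml of it for 72 h (TAL1-KD). A second inducible line carried an shRNA against UTX, the histone demethylase encoded by KDM6A, and was treated in the same way (UTX-control, UTX-KD). Jurkat cells without a stated shRNA received the solvent DMSO (J4-control) or 2 µM of the KDM6 demethylase inhibitor GSK-J4 (J4-2uM), each for 72 h. The shRNA lines were kept in tetracycline-free serum with blasticidin and G418, and the J4 groups in ordinary serum without these drugs. Because only the KD groups had doxycycline, the agent and the shRNA cannot be told apart in them. The labels do not say whether a line was 1 clone or whether replicates were separate cultures, so p-values cover no more than the spread between the samples, which could be technical.

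TXNIP, the thioredoxin-interacting protein, binds reduced thioredoxin and also brings about the removal of glucose transporters from the cell surface. It belongs to the alpha-arrestins, adaptor proteins that link membrane proteins to ubiquitin ligases of the NEDD4 family for internalisation and sorting. ARRDC4 is its closest relative, likewise acts on glucose transport, and is known as a target of the same regulator. That regulator is the pair of MLX and MondoA, the product of MLXIP, which senses phosphorylated glucose and binds carbohydrate response elements in the TXNIP and ARRDC4 promoters. ARRDC3 takes part in the trafficking of beta-adrenergic receptors and integrins, and ARRDC1 drives the budding of vesicles from the plasma membrane.

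The promoters of the 2 genes that share this regulator are shown because a carbohydrate response element or an E-box, the sites bound by MLX heterodimers, can be read in them. RefSeq held promoter entries for 7 of the 8 genes, and ARRDC5 had none. The sequences below are the 250 bases before the annotated start in GRCh38.p14, written 5′ to 3′ along the gene, with the matched motif in capitals. The expression files use hg19, so these positions were not joined to any measured value.
TXNIP, chr1:145996580-145996829, minus strand: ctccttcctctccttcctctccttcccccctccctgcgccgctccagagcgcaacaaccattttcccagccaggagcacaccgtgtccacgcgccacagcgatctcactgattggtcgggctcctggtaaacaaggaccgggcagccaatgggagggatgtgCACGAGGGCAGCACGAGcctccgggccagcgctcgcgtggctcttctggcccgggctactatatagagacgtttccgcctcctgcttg
ARRDC4, chr15:97960453-97960702, plus strand: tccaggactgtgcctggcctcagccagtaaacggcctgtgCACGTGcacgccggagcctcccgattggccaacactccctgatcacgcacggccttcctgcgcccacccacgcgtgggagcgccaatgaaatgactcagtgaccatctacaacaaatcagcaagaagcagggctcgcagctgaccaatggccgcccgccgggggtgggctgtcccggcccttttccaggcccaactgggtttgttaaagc
In TXNIP the capitals mark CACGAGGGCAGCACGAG, which starts 88 bases before the start site. This is a match to the carbohydrate response element form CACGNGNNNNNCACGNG, searched on both strands, where N is any base. The form was found in 20 of 35116 promoters of 300 bases (0.057%), and among the 8 genes only in 1 of the 2 TXNIP entries. In ARRDC4 the capitals mark the E-box CACGTG, 210 bases before the start site. CACGTG was found in 7.26% of all promoters, and MLX was the other member with it. A carbohydrate response element with T at both central N positions would hold 2 E-boxes, so the motifs can overlap. The form GTAAACA, which FOXO factors bind, was found in 3.42% of promoters. Among them were 1 of the 2 TXNIP entries, 124 bases before the start site, and 1 of the 2 ARRDC3 entries. These matches describe letters in a window and no binding was measured.

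The libraries held 55524079 to 82534711 counted reads. The T-cell label was met by 10 of 11 T-cell markers at 1 CPM (count per 1000000 reads) or more on average, with a summed level of 2093 to 4797 CPM. Of 4 B-cell markers CD79A alone was at that level, at 36.5 to 84.9 CPM, and no myeloid, erythroid or epithelial marker was. In the TAL1-labelled comparison the log2 fold change of TAL1 was -0.07 (SE 0.09) and its edgeR adjusted p was 0.490. KDM6A changed by -0.08 (SE 0.04) in the UTX-labelled comparison, with an edgeR adjusted p of 0.103. Neither targeted mRNA was shown to be lower in its own comparison, so the groups are named here by their labels only. TAL1 was lower in UTX-KD, by 0.12 (SE 0.03, edgeR adjusted p = 0.00155), and in J4-2uM, by 0.66 (SE 0.03, edgeR adjusted p = 6.02e-10). KDM6A was higher in J4-2uM, by 0.44 (SE 0.04, edgeR adjusted p = 1.24e-07). Replicates were least alike in the TAL1-labelled comparison, whose biological coefficient of variation was 8.40%, against 2.30% for UTX and 2.69% for GSK-J4. By the SD over genes of the log2 difference between replicates, the TAL1-KD pair was the least alike, at 0.435. The TAL1-control pair was at 0.255, and the pairs of the other groups at 0.257 to 0.327.

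TXNIP and ARRDC4 were lower, and ARRDC3 and ARRDC2 higher, in the treated libraries of all 3 comparisons. The sizes were far apart: TXNIP stood 11.5-fold lower in TAL1-KD, 1.49-fold lower in UTX-KD and 1.32-fold lower in J4-2uM. ARRDC3 stood 6.81-fold, 2.35-fold and 2.84-fold higher. ARRDC1 and the regulator genes MLX and MLXIP moved little, and ARRDC5 was barely read. Each comparison has its own 2 control libraries, and no library was used in more than 1 of them.

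**Figure D1:**
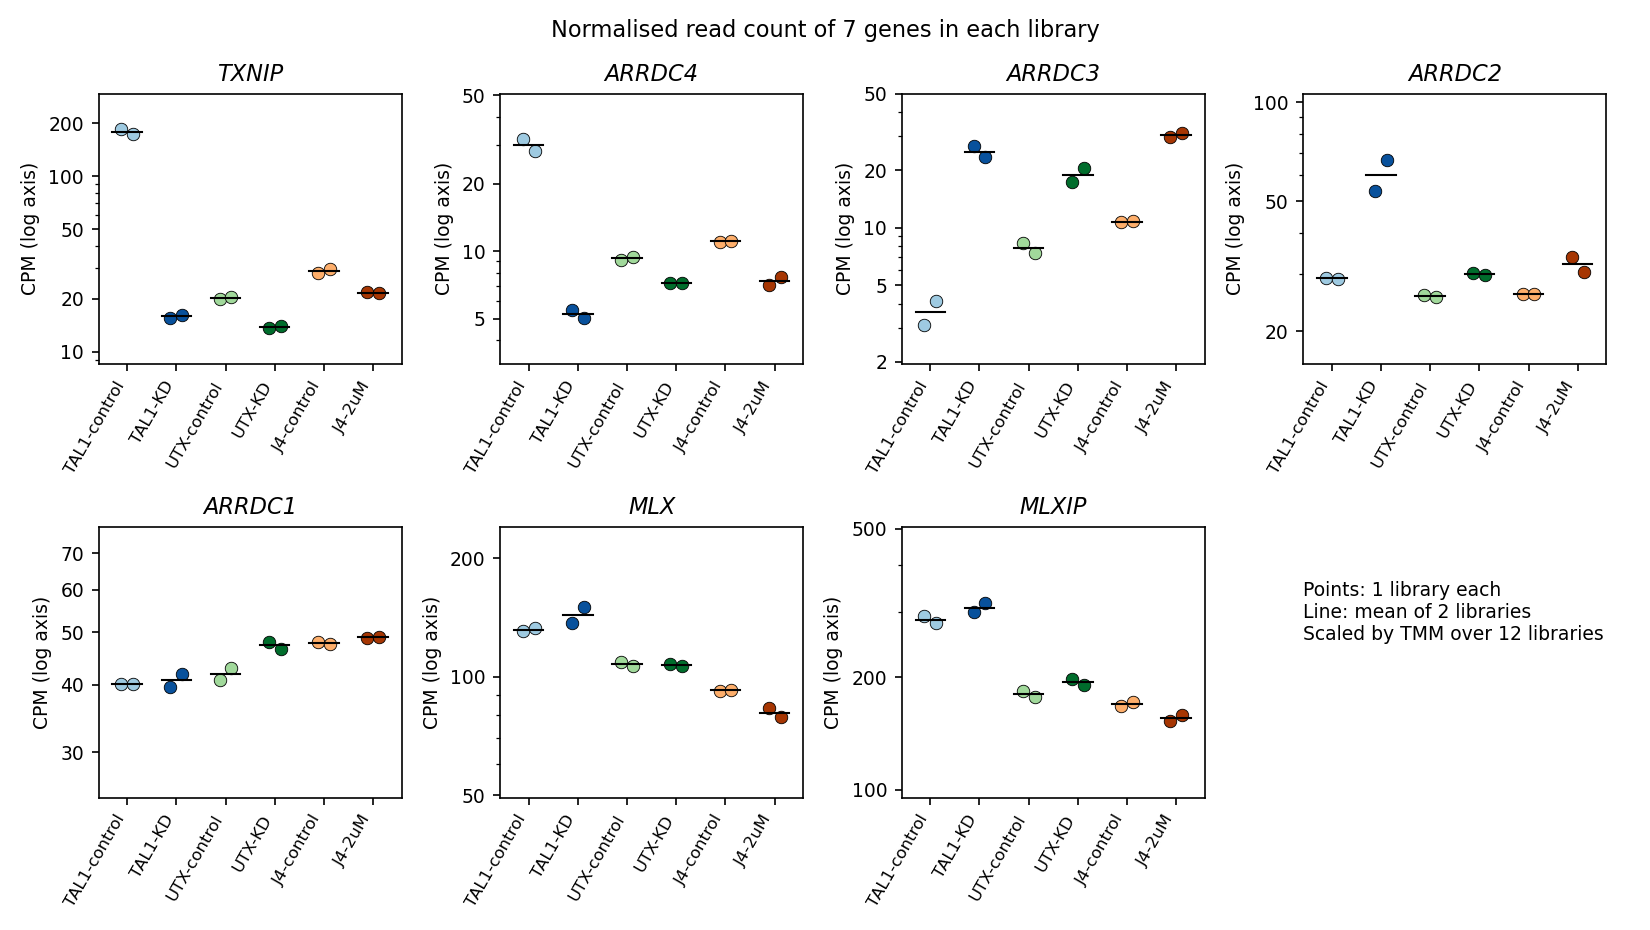
Normalised read count (CPM, log axis) of 7 genes in each of the 12 libraries, scaled by TMM over all libraries, with 1 point per library and a line at the mean of 2. The TAL1-control libraries stand apart for TXNIP, at 185 and 174 CPM against 13.6 to 29.5 in the other 10 libraries, and they are the highest for ARRDC4 and the lowest for ARRDC3.

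TXNIP (ENSG00000117289) had 185 and 174 CPM in the TAL1-control libraries and 15.6 and 16.2 CPM in TAL1-KD, from 13050 and 11120 reads against 857 and 905. The groups were far apart, and the log2 fold change was -3.52 (SE 0.09). Of the 16829 genes in that fit, 27 had a larger decrease. In the authors' deposited table of this comparison, TXNIP had a log2 fold change of -3.47. In UTX-control the 2 libraries read 19.9 and 20.5 CPM and in UTX-KD 13.6 and 13.9 CPM. TXNIP fell there by 0.57 (SE 0.05) on the log2 scale, with an edgeR quasi-likelihood adjusted p of 5.84e-08, and the groups did not overlap. In J4-control it was at 28.2 and 29.5 CPM and in J4-2uM at 21.9 and 21.6 CPM. That fall, also without overlap, was 0.40 (SE 0.05) on the log2 scale (edgeR adjusted p = 2.45e-06). In bulk RNA, fewer cells with a transcript and less of it per cell cannot be told apart.

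ARRDC4 (ENSG00000140450), the closest relative of TXNIP, had 31.8 and 28.1 CPM in TAL1-control and 5.45 and 5.01 CPM in TAL1-KD. The change was -2.54 on the log2 scale (SE 0.12), and 115 genes had a larger decrease. In UTX-control it was at 9.18 and 9.42 CPM, and in UTX-KD at 7.22 and 7.18 CPM, below both controls. ARRDC4 fell by 0.39 (SE 0.07) on the log2 scale in this comparison (edgeR adjusted p = 9.19e-05). With GSK-J4 it went from 10.99 and 11.1 CPM in the controls to 7.05 and 7.71 CPM, again without overlap. The change was -0.58 (SE 0.07) on the log2 scale (edgeR adjusted p = 5.18e-06).

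ARRDC3 (ENSG00000113369) moved the opposite way. It had 3.11 and 4.13 CPM in TAL1-control and 26.6 and 23.3 CPM in TAL1-KD, from 219 and 264 reads against 1462 and 1304. The log2 fold change was 2.77 (SE 0.16), and 14 genes of the fit had a larger increase. In the UTX-labelled comparison it was at 8.34 and 7.40 CPM in the controls and at 17.3 and 20.5 CPM in UTX-KD, with every treated library above both controls. ARRDC3 rose by 1.23 (SE 0.08) on the log2 scale (edgeR adjusted p = 1.05e-09), and 167 of 16847 genes had a larger increase. With GSK-J4 it went from 10.7 and 10.8 CPM to 29.6 and 31.4 CPM, the highest level of any group. This rise was 1.51 (SE 0.05) on the log2 scale (edgeR adjusted p = 3.37e-11), and 814 of 17907 genes had a larger increase.

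ARRDC2 (ENSG00000105643), a less studied member, had 29.1 and 28.99 CPM in TAL1-control and 53.5 and 66.6 CPM in TAL1-KD. The TAL1-KD libraries differed by more than in any other group, yet both were above the controls, and the log2 fold change was 1.02 (SE 0.11). In UTX-control it was at 25.8 and 25.4 CPM and in UTX-KD at 30.1 and 29.7 CPM. ARRDC2 rose by 0.20 (SE 0.04) on the log2 scale there (edgeR adjusted p = 0.000685). With GSK-J4 the 2 controls read 26.02 and 25.997 CPM and the treated libraries 33.7 and 30.5 CPM. This rise was 0.31 (SE 0.05) on the log2 scale (edgeR adjusted p = 7.57e-05). With each library's trend over GC content and transcript length removed it was 0.10, and the edgeR adjusted p was 0.0796.

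ARRDC1 (ENSG00000197070), the vesicle-budding member, was nearly level. It had 40.1 and 40.1 CPM in TAL1-control and 39.5 and 41.9 CPM in TAL1-KD, so that these groups overlapped, and the log2 fold change was -0.0010 (SE 0.08). In UTX-control it was at 40.8 and 42.9 CPM and in UTX-KD at 48.0 and 46.6 CPM. It rose there by 0.16 (SE 0.04) on the log2 scale (edgeR adjusted p = 0.00264), and without UTX-control replicate 1 the adjusted p was 0.0768. With GSK-J4 it had 48.0 and 47.5 CPM in the controls and 48.9 and 49.0 CPM in the treated libraries. The 95% interval of that log2 fold change was -0.04 to 0.12 (edgeR adjusted p = 0.298), and with the GC and length trend removed the value turned to -0.14 (edgeR adjusted p = 0.00171). The antisense transcript ARRDC1-AS1 rose with GSK-J4, from 27.8 and 26.7 CPM to 39.0 and 37.8 CPM, by 0.50 on the log2 scale (SE 0.04, edgeR adjusted p = 1.28e-07). The kit was stranded, but the strand setting of the counting is not given in the sources used here, so reads of this gene and of ARRDC1 cannot be told apart. ARRDC5 (ENSG00000205784) had 0 to 8 reads per library, and it was the only member that did not pass the filter on low counts in any comparison.

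MLX (ENSG00000108788), the shared partner of the glucose-sensing factors, had 131 and 133 CPM in TAL1-control and 137 and 150 CPM in TAL1-KD, a difference of 0.10 on the log2 scale (SE 0.08). It was at 109 and 107 CPM in UTX-control and at 108 and 107 CPM in UTX-KD, groups that overlapped (95% interval of the log2 fold change -0.10 to 0.03, edgeR adjusted p = 0.383). With GSK-J4 MLX fell from 91.9 and 92.8 CPM to 83.2 and 79.0 CPM, by 0.18 on the log2 scale (SE 0.04, edgeR adjusted p = 0.000376). MLXIP (ENSG00000175727), which encodes MondoA, had 291 and 280 CPM in TAL1-control and 299 and 316 CPM in TAL1-KD, a difference of 0.08 on the log2 scale (SE 0.08). It was at 183 and 178 CPM in UTX-control and at 198 and 191 CPM in UTX-KD, higher by 0.08 on the log2 scale (SE 0.03, edgeR adjusted p = 0.0370). That small rise turned to -0.03 (edgeR adjusted p = 0.285) with the GC and length trend removed, and its adjusted p was 0.270 without UTX-control replicate 2 and 0.181 without UTX-KD replicate 1. With GSK-J4 MLXIP fell from 168 and 172 CPM to 153 and 158 CPM, by 0.12 on the log2 scale (SE 0.03, edgeR adjusted p = 0.00538), and without J4-control replicate 2 the adjusted p was 0.0707. With the GC and length trend removed that fall was 0.27 (edgeR adjusted p = 1.31e-06).

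**Figure D2:**
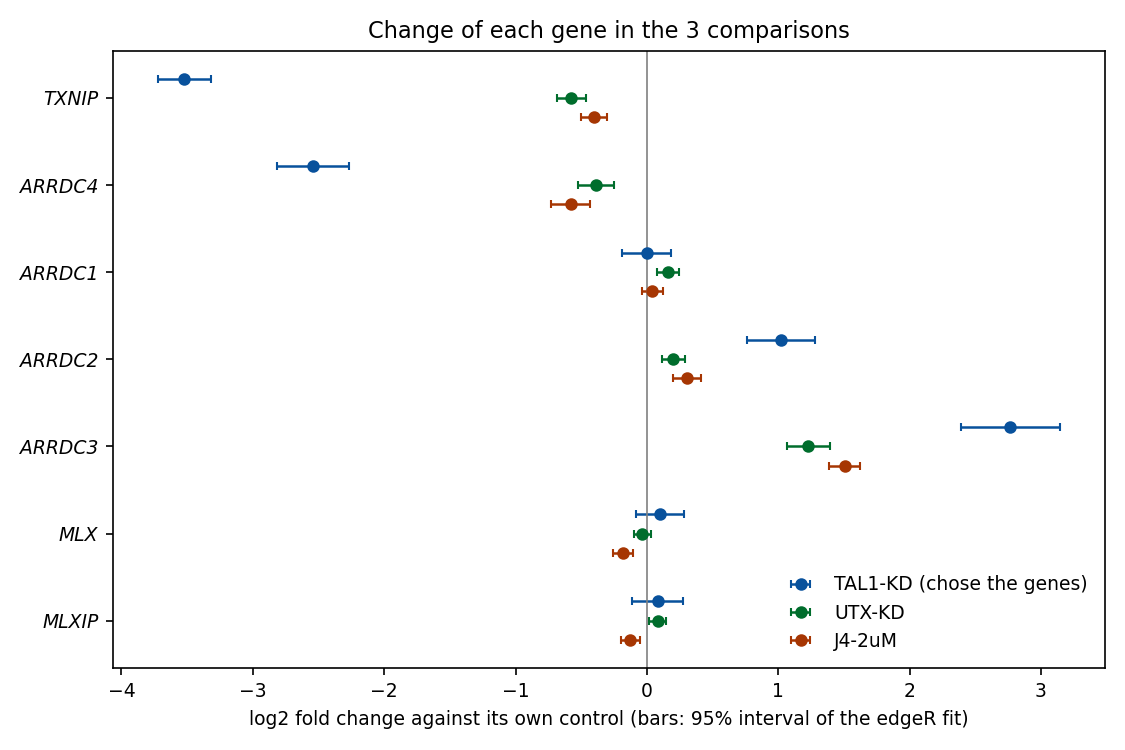
Log2 fold change of each gene against its own control (horizontal axis) in the 3 comparisons, with bars for the 95% interval of the edgeR fit. TXNIP and ARRDC4 lie left of 0 and ARRDC2 and ARRDC3 right of 0 in each comparison, with the TAL1-KD values, on which the genes were chosen, the farthest out.

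By count, 4 of the 7 members in the TAL1-labelled fit differed by at least 2-fold, 2 in each direction, where 15.5% of all genes in the fit did so, 4.37% upwards and 11.1% downwards. The groups of 6 members did not overlap, against 81.0% of all genes, and nothing is read from these counts, since this comparison chose the members. In UTX-KD 6 of 7 members tested passed an edgeR adjusted p of 0.05, against 50.5% of all genes tested. Of these 4 were higher (ARRDC1, ARRDC2, ARRDC3 and MLXIP) and 2 lower (TXNIP and ARRDC4), where 25.2% and 25.3% of all genes were. With GSK-J4 6 of 7 passed, against a background of 74.9%, so this share is close to that of genes in general. Of these 2 were higher (ARRDC2 and ARRDC3) and 4 lower (TXNIP, ARRDC4, MLX and MLXIP), against 37.9% and 36.9% of all genes. The sizes set the members apart from each other more than the counts do. With a log2 fold change of at least 0.5 required as well, TXNIP and ARRDC3 were left in UTX-KD and ARRDC3 and ARRDC4 in J4-2uM. In J4-2uM 4709 genes had a larger decrease than TXNIP and 3407 a larger one than ARRDC4, so both falls were ordinary in size there.

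Whether a member responded differently to GSK-J4 and in the UTX-labelled line was tested as an interaction over their 8 libraries. The response differed for 4 of 7 members at an edgeR adjusted p of 0.05, against 58.4% of all genes, so this share is close to that of genes in general. It was more positive with GSK-J4 for 2 (ARRDC3 and TXNIP) and more negative for 2 (MLX and MLXIP), against 28.3% and 30.1% of all genes. ARRDC3 rose by 0.28 more with GSK-J4 on the log2 scale (SE 0.10, edgeR adjusted p = 0.0153), and TXNIP fell by less, with a difference of 0.18 (SE 0.07, edgeR adjusted p = 0.0295). MLX and MLXIP differed by -0.14 (SE 0.05, edgeR adjusted p = 0.0171) and -0.20 (SE 0.05, edgeR adjusted p = 0.000732). The ARRDC3 difference missed the threshold without UTX-control replicate 1, UTX-KD replicate 1 or J4-2uM replicate 2 (0.18, 0.16 and 0.24, with edgeR adjusted p of 0.206, 0.160 and 0.0682). The MLX difference did so without UTX-control replicate 2 or J4-control replicate 2 (edgeR adjusted p = 0.0765 and 0.0540). The TXNIP difference missed the threshold without any 1 of UTX-control replicate 2, UTX-KD replicates 1 and 2, J4-control replicate 1 and J4-2uM replicate 1 (adjusted p from 0.0536 to 0.130). For ARRDC4 the difference was -0.18 with an interval of -0.38 to 0.02 (edgeR adjusted p = 0.110). For ARRDC2 it was 0.12 with an interval of -0.02 to 0.26 (edgeR adjusted p = 0.146), and for ARRDC1 -0.11 with an interval of -0.22 to 0.01 (edgeR adjusted p = 0.0981). Without J4-2uM replicate 2 the differences of ARRDC4 and ARRDC2 passed (edgeR adjusted p = 0.0317 and 0.0180), and with the GC and length trend removed that of ARRDC1 did (-0.26, edgeR adjusted p = 6.42e-05).

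The levels across all 6 groups put these sizes side by side. In order from low to high, TXNIP went from UTX-KD (13.8 CPM) through TAL1-KD (15.9), UTX-control (20.2), J4-2uM (21.7) and J4-control (28.8) to TAL1-control (179 ± 8.04, SD, n = 2). No neighbours in that order overlapped. TAL1-control stood 8.88-fold above UTX-control and 6.22-fold above J4-control, while TAL1-KD was at 0.786 of UTX-control and 1.15 of UTX-KD. Among 13212 genes with at least 1 CPM in TAL1-control, 36 others stood at least as far above both of the other control groups. ARRDC4 was likewise highest in TAL1-control and next in J4-control, with the lower groups in another order. TAL1-control stood 3.22-fold above UTX-control and 2.71-fold above J4-control. Its TAL1-KD libraries were the lowest of all, and of the neighbours in its order only UTX-KD and J4-2uM overlapped. ARRDC3 ran the other way. TAL1-control was at 0.460 of UTX-control and 0.336 of J4-control, followed upwards by UTX-control, J4-control, UTX-KD, TAL1-KD and J4-2uM with no overlap. MLXIP was 1.58-fold higher in TAL1-control than in UTX-control and 1.68-fold higher than in J4-control, and it was at 307 CPM in TAL1-KD against 285 CPM in TAL1-control. The 2 shRNA lines shared medium and lack of doxycycline as controls, so they differed in the labels by the shRNA they carried. The line, and between shRNA and J4 groups also the medium and the agent, cannot be told apart in these levels, and the labels give no batch.

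Within a library, the reads of ARRDC3 per 100 reads of TXNIP do not depend on the scaling. They were 1.68 and 2.37 in TAL1-control, 41.9 and 36.0 in UTX-control and 38.0 and 36.7 in J4-control. In the treated libraries they were 171 and 144 in TAL1-KD, 127 and 147 in UTX-KD and 135 and 146 in J4-2uM. The 3 treated groups thus lay within 127 to 171 and overlapped, while the TAL1-control libraries lay far below the other controls. For ARRDC4 the reads per 100 of TXNIP were 17.1 and 16.2 in TAL1-control and ran from 30.9 to 53.1 in the other 10 libraries. These are ratios of reads between genes of different length and not of transcript numbers.

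**Figure D3:**
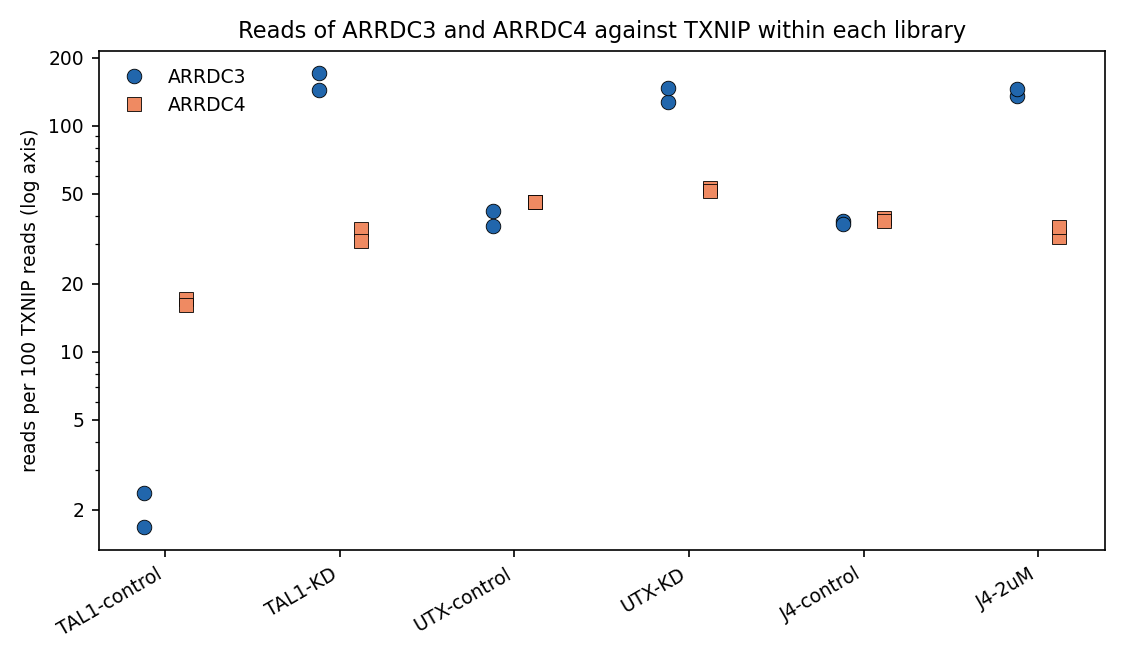
Reads of ARRDC3 (circles) and ARRDC4 (squares) per 100 TXNIP reads (log axis) in each library, by group. For ARRDC3 the 6 treated libraries sit between 127 and 171, the UTX and J4 controls between 36.0 and 41.9, and the TAL1 controls at 1.68 and 2.37.

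Per kilobase of transcript, the scale on which genes can be set side by side, the 6 alpha-arrestins summed to 109 and 104 CPM per kilobase in TAL1-control and to 46.9 to 65.1 in the other 10 libraries. TXNIP made up 58.3% and 57.1% of that sum in TAL1-control and 9.02% and 8.49% in TAL1-KD. Its share was 14.5% in both UTX-control libraries and 8.81% and 9.05% in UTX-KD. In J4-control the share was 17.4% and 18.1%, and in J4-2uM 12.4% and 12.3%. Outside TAL1-control the largest member was ARRDC1, with a mean share of 41.3% in TAL1-KD and 51.4% to 56.6% in the UTX and J4 groups. ARRDC3 held 0.815% of the sum in TAL1-control and 9.65% in TAL1-KD on average, and ARRDC2 10.8% and 38.1%. The shares depend on the transcript length taken for each gene: with median instead of the longest lengths the TXNIP share in TAL1-control was 54.3%.

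**Figure D4:**
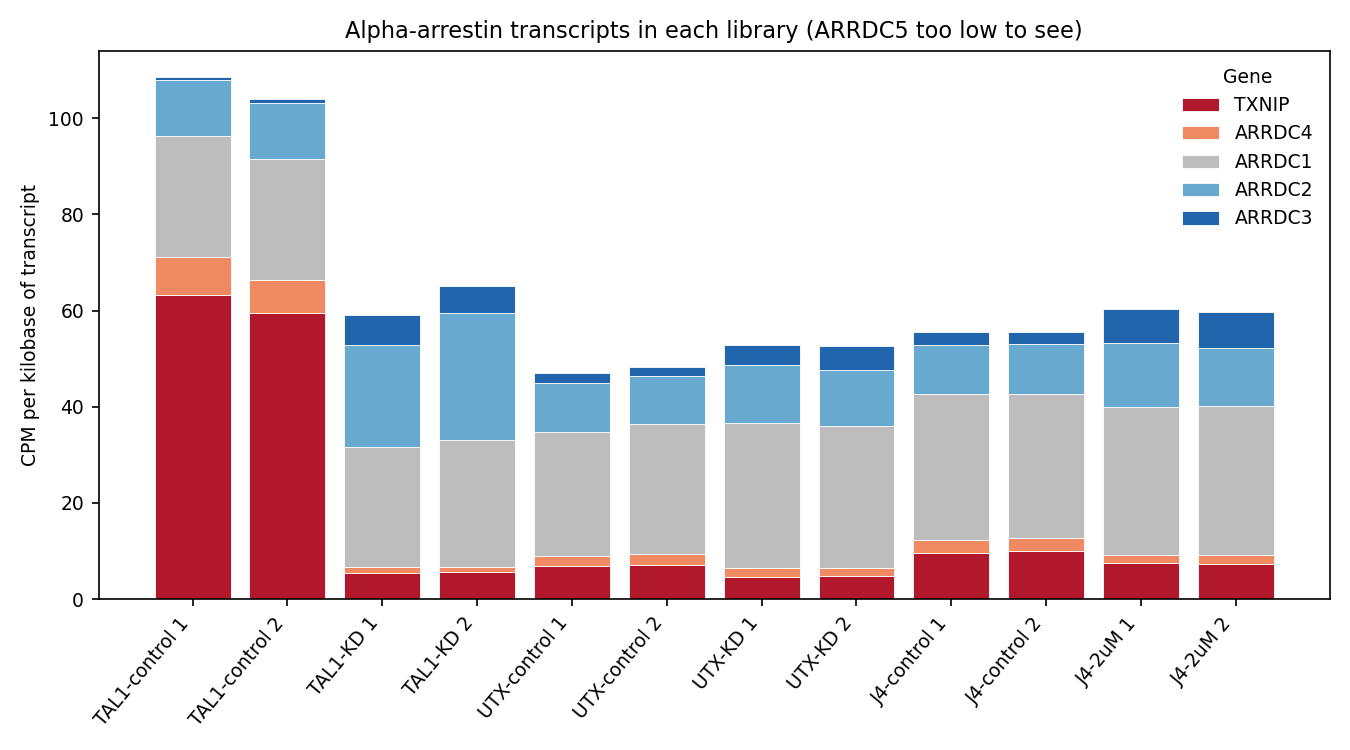
Level of the alpha-arrestins in each library as stacked bars, in CPM per kilobase of transcript. TXNIP fills more than any other gene of the bar in the 2 TAL1-control libraries (58.3% and 57.1%) and at most 18.1% elsewhere, where ARRDC1 is the largest part.

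The genes whose pattern was most like that of 3 members were found from log2(CPM + 0.5) of each library less the mean of its own controls. Likeness was the root mean square difference over the 12 libraries, among 15542 genes, so the TAL1-KD libraries weigh most, and the added 0.5 makes changes of genes with few reads look smaller. For TXNIP the nearest genes were ARHGEF39 (0.42), ARRDC4 (0.44), GLIPR1 (0.51) and the mitotic motor gene CENPE (0.51), where the median gene was at 1.46. In UTX-KD ARHGEF39 and CENPE changed by -0.70 and -0.68 on the log2 scale, and in J4-2uM by -1.28 for each. GLIPR1 went the other way from TXNIP in UTX-KD, at 0.14, and was at -0.19 in J4-2uM. ARRDC4 was thus the second of 15542 genes for TXNIP, while TXNIP took place 123 for ARRDC4. For ARRDC4 the nearest were FAR2 (0.13), STOX1 (0.16), ESCO2 (0.17), which acts in sister chromatid cohesion, and the receptor gene IL9R (0.18), with a median of 1.05 over all genes. For ARRDC3 the nearest were the nicotinic receptor subunit gene CHRNA6 (0.13), the interferon-induced gene IFIT3 (0.29), the NF-kB inhibitor gene NFKBIA (0.32) and the non-coding MIAT (0.33), against a median of 1.35. CHRNA6 changed by 1.72 in UTX-KD and 1.97 in J4-2uM on the log2 scale against 1.23 and 1.51 for ARRDC3. Since the TAL1-labelled values chose the members, these likenesses are descriptions.

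Glucose uptake, the process that TXNIP and ARRDC4 restrain, was followed through 12 tested genes of transport and the first steps of glycolysis. Changes of this list and of the lists after it are given on the log2 scale. In UTX-KD 7 of them fell and 0 rose, with a median log2 fold change of -0.28 against 0.01 over all genes. Of all genes tested there 25.3% were lower and 25.2% higher, and with GSK-J4 36.9% and 37.9%, and the counts of each list stand beside these shares. The glucose transporter gene SLC2A1 fell by 1.24 (SE 0.05, edgeR adjusted p = 2.79e-12) and the hexokinase gene HK2 by 1.28 (SE 0.04, edgeR adjusted p = 1.01e-13). GPI and PFKP, of the next steps, fell by 0.64 and 0.57. With GSK-J4 8 fell and 3 rose, with a median of -0.81. HK2 fell from 167 to 28.4 CPM on average, by 2.55 (SE 0.04, edgeR adjusted p = 1.48e-14), and SLC2A1 from 153 to 41.2 CPM, by 1.89 (SE 0.04, edgeR adjusted p = 2.57e-13). HK1, another hexokinase gene, fell by 1.21. The transporter gene SLC2A3, named after its values were seen, was among the 3 that rose, by 0.83 (SE 0.06, edgeR adjusted p = 1.74e-08). In UTX-KD SLC2A3 was at -0.05 (SE 0.08, edgeR adjusted p = 0.638). TXNIP and SLC2A1, whose product it acts on, thus both fell in each tested comparison. In TAL1-KD the median of the 12 genes was -0.04, and 4 of them were above 0.

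Genes described as targets of MondoA or its relative ChREBP moved both ways. Of 8 tested in UTX-KD, 6 fell and 2 rose (all genes: 25.3% and 25.2%), with a median of -0.52. With GSK-J4 5 fell and 2 rose (all genes: 36.9% and 37.9%), with a median of -0.67, and in TAL1-KD the median was 0.36. FASN, which makes fatty acids, fell by 1.00 (SE 0.03, edgeR adjusted p = 2.53e-13) in UTX-KD and by 1.71 (SE 0.04, edgeR adjusted p = 6.54e-13) in J4-2uM. SCD and ACLY, also of lipid synthesis, fell by 0.90 and 0.50 in UTX-KD and by 0.93 and 0.87 in J4-2uM. PFKFB3, a regulator of glycolytic flux, fell by 0.85 and 1.26. FGF21, named after its values were seen, rose in both, but from 0 and 1 reads to 17 and 16 in UTX-KD and from 0 and 0 reads to 26 and 19 in J4-2uM.

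**Figure D5:**
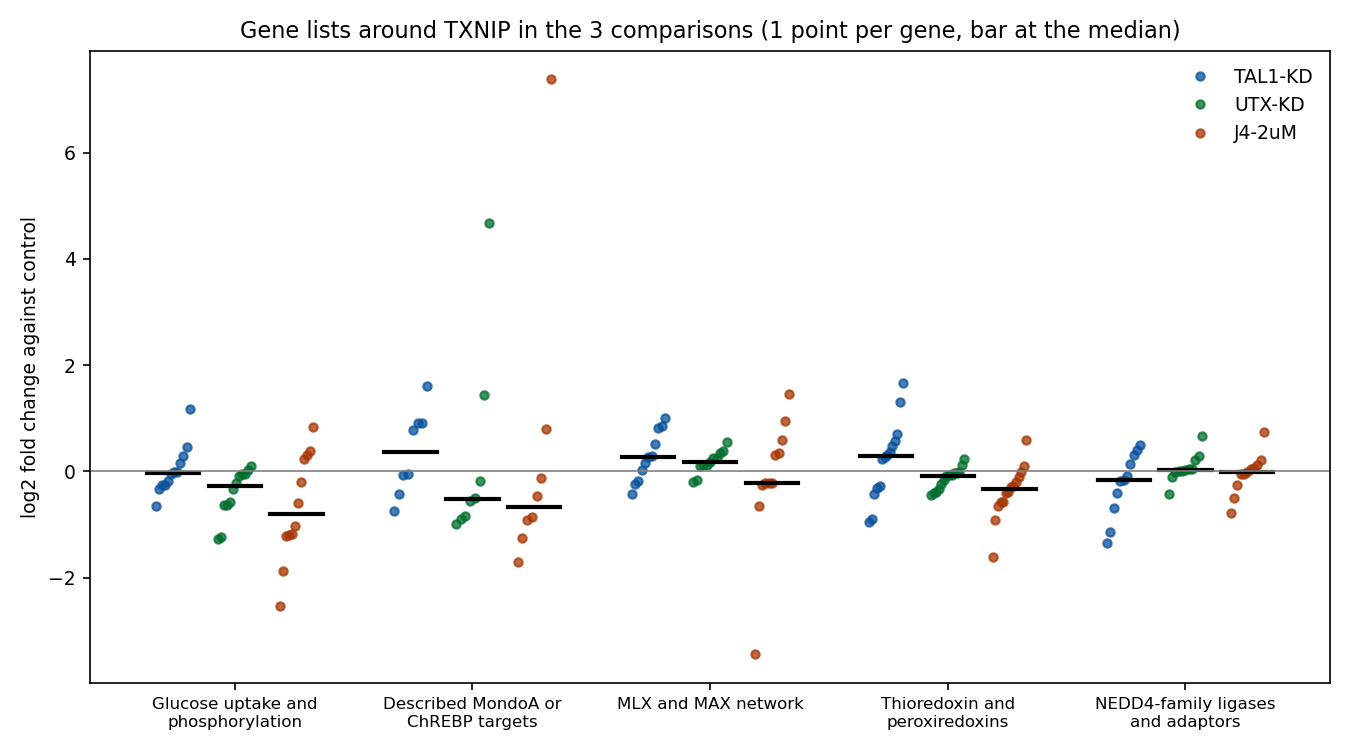
Log2 fold change against control of every tested gene of 5 lists, with 1 point per gene, a colour per comparison and a bar at the median. The medians for glucose uptake lie at -0.04, -0.28 and -0.81 in TAL1-KD, UTX-KD and J4-2uM, and the outlying high points of the MondoA list are FGF21, whose fitted values rest on 0 or 1 control reads.

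In the wider MLX and MAX network, whose proteins compete for E-boxes, 7 of 11 genes rose and 2 fell in UTX-KD (median 0.17), where 50.5% of all genes passed in either direction. MXD4, a repressor of the network, rose by 0.38 (SE 0.04, edgeR adjusted p = 3.41e-07) and MYC fell by 0.21 (SE 0.03, edgeR adjusted p = 8.52e-06). With GSK-J4 5 rose and 6 fell (median -0.21), where 74.9% of all genes passed. MYC went from 294 to 27.0 CPM, by -3.44 (SE 0.04, edgeR adjusted p = 2.95e-15), and the repressor gene MXD1 rose by 1.46 (SE 0.05, edgeR adjusted p = 1.85e-11). In TAL1-KD the median was 0.26.

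Thioredoxin, the binding partner of TXNIP, and the enzymes around it were mostly lower with GSK-J4, where 11 of 14 fell and 1 rose (median -0.34), against 36.9% and 37.9% of all genes. TXN fell by 0.59 (SE 0.03, edgeR adjusted p = 2.71e-09), its reductase gene TXNRD1 by 0.65 and the peroxiredoxin gene PRDX1 by 1.61. In UTX-KD 6 fell and 2 rose (median -0.08), with PRDX1 at -0.42 (SE 0.03, edgeR adjusted p = 5.39e-09) and PRDX3 at -0.39. TXN and TXNRD1 did not pass there, at -0.03 and -0.04 (edgeR adjusted p = 0.462 and 0.306). In TAL1-KD the median was 0.28 and 9 of the 14 were above 0, among them TXN at 1.30 and PRDX1 at 1.66. Of 11 NEDD4-family ligase and adaptor genes, through which alpha-arrestins work, 2 rose and 2 fell in each tested comparison (medians 0.03 and -0.02). The adaptor gene NDFIP2 rose by 0.29 in UTX-KD and by 0.73 in J4-2uM, and WWP2 fell by 0.11 and 0.79. In TAL1-KD the median of this list was -0.17 and 4 of the 11 were above 0, with NDFIP2 at -1.14 and WWP2 at -0.17.

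The remaining lists moved both ways, read against the same shares of all genes. Among the beta-arrestin and VPS26 genes, of the same protein fold, 1 rose and 2 fell of 5 in UTX-KD and 1 rose and 3 fell of 6 in J4-2uM. ARRB1 fell in both, by 0.22 and 0.45 on the log2 scale. Of 7 partners of ARRDC1 in vesicle budding, 4 rose and 1 fell in UTX-KD (median 0.09) and 3 rose and 3 fell in J4-2uM (median -0.01). TSG101, which ARRDC1 recruits, rose by 0.23 in UTX-KD and fell by 0.09 in J4-2uM (SE 0.04, edgeR adjusted p = 0.0417). Of 14 FOXO factor and target genes, 5 rose and 1 fell in UTX-KD (median 0.10), and 8 rose and 4 fell in J4-2uM (median 0.26). FOXO1 itself was at 1.13 in J4-2uM (SE 0.07, edgeR adjusted p = 1.23e-08). The described target IL7R fell in both, by 0.44 in UTX-KD (SE 0.04, edgeR adjusted p = 1.19e-07) and by 1.13 in J4-2uM (SE 0.07, edgeR adjusted p = 3.26e-09). Of 10 glucocorticoid-induced genes, 4 rose and 3 fell in UTX-KD (median 0.08) and 5 rose and 3 fell in J4-2uM (median 0.15). TSC22D3, a strongly glucocorticoid-induced gene, rose by 1.00 (SE 0.13, edgeR adjusted p = 3.79e-06) and 1.95 (SE 0.09, edgeR adjusted p = 2.22e-10). FKBP5, of the same list, fell by 0.27 (SE 0.03, edgeR adjusted p = 1.01e-06) and 0.65 (SE 0.03, edgeR adjusted p = 1.24e-09). In TAL1-KD both genes were lower, by 0.93 and 0.83, while the median of the list was -0.10 and 5 of the 10 were above 0.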

How the data were processed

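Stranded mRNA libraries from Jurkat cells were sequenced. The submitters' processing notes list HTSeq 0.6.1p1, TopHat2 2.0.12, DESeq2 and the hg19 build, without their order. The authors deposited, for each comparison, raw read counts per Ensembl gene and library, with mean normalised signal, log2 fold change, Wald score and p-value columns from DESeq2. The strand setting and the treatment of multi-mapping reads are not given in the sources used here.

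The deposited counts were refitted with edgeR 4.0.16 (R 4.3.3) on the 4 libraries of each comparison. Low genes were removed with filterByExpr, libraries were TMM-scaled, and two-sided quasi-likelihood tests were adjusted by Benjamini-Hochberg over all genes tested, 16847 in the UTX-labelled and 17907 in the GSK-J4 comparison, at 0.05. The response difference was an interaction over 8 libraries (18197 genes). CPM were TMM-scaled over 12 libraries. Of 33704 identifiers, 31686 had a symbol and 94.7% a transcript length from GENCODE, and 124 of 128 list genes were in the tables. TXNIP was matched by its hg19 identifier. The procedure was also run on simulated data in which far fewer genes changed than were called here. Its accuracy at the shares called here was not tested.

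The members and lists were chosen with earlier results of these data known. Named genes were the 8 members, the targeted genes, up to 4 called genes per list and comparison with the smallest adjusted p, and the 4 genes nearest in pattern to TXNIP, ARRDC3 and ARRDC4. Alternatives were DESeq2 size factors and Wald test (DESeq2 1.42.0), other filters and thresholds, a replicate block, each library left out, other scalings and lengths for levels, and, chosen after seeing the data, removal of trends with GC content and length.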

Additional observations from a re-analysis of the deposited data

Results flagged for a closer look

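The response to GSK-J4 and the difference in the UTX-labelled line were not the same size for 4 of the genes, by the interaction test of edgeR over 8 libraries. Given as the GSK-J4 minus the UTX-labelled log2 fold change, the differences were 0.18 for TXNIP, 0.28 for ARRDC3, -0.14 for MLX and -0.20 for MLXIP. TXNIP fell in both, ARRDC3 rose in both, and MLX fell with GSK-J4 alone at the threshold. MLXIP had 0.08 in the UTX-labelled comparison and -0.12 with GSK-J4, but the former turned to -0.031 with the trend over GC content and length removed and lost its call under 5 other alternatives, so opposite directions are not established. The share of all genes with such a difference was 58.4%, so 4 of 7 tested genes is close to that of genes in general. The call was lost under some alternative fits for TXNIP, ARRDC3 and MLX.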

How the results depend on the processing

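The falls of TXNIP and ARRDC4 and the rise of ARRDC3 kept direction and call in UTX-KD and J4-2uM under all 10 alternative fits of each comparison. Their log2 ranges were -0.60 to -0.55, -0.41 to -0.37 and 1.10 to 1.34 in UTX-KD, and -0.44 to -0.31, -0.65 to -0.53 and 1.46 to 1.54 in J4-2uM. With the trend over GC content and length removed, MLXIP in UTX-KD turned to -0.031 and ARRDC1 in J4-2uM to -0.14, and the cause was not tested. MLXIP in UTX-KD also missed the threshold with DESeq2 size factors (adjusted p = 0.0520), with the DESeq2 Wald test (adjusted p = 0.0882), and without UTX-control replicate 2 or UTX-KD replicate 1. With a log2 fold change of at least 0.5 required as well, the members called numbered 2 in UTX-KD, 2 in J4-2uM and 0 for the response difference, for which 1 remained at an adjusted p under 0.01, since these rules are stricter. With 1 library left out, 2 to 5 members differed in response, and the lone sample of a group is then assumed to vary like the others. The response difference of TXNIP also missed the threshold without a filter on low counts (adjusted p = 0.141) and with the DESeq2 Wald test (adjusted p = 0.0881). MLXIP alone kept that call under all 14 alternative fits of the response difference. In TAL1-KD the ranges were -3.58 to -3.35 for TXNIP, -2.63 to -2.36 for ARRDC4, 2.58 to 3.07 for ARRDC3 and 0.87 to 1.18 for ARRDC2. Same-numbered replicates showed no large shared deviation over the tested genes (correlations of 0.06, 0.06 and -0.02). These values cannot tell whether samples were prepared in pairs, and the main fits used no pairing. With the replicate block MLXIP in UTX-KD had an adjusted p of 0.0564, and the other calls of members in UTX-KD and J4-2uM did not change. ARRDC5, at 8 reads or fewer, is limited by depth.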

Other observations

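The TAL1-control libraries also stood apart from the other controls in genes around TXNIP. Thioredoxin itself, TXN, was at 57.9 ± 2.01 CPM (SD, n = 2) there, against 161 ± 1.24 in UTX-control and 136 ± 1.64 in J4-control. The peroxiredoxin gene PRDX1 was at 151 ± 10.5 CPM, against 567 ± 5.07 and 473 ± 3.38. The glucose transporter gene SLC2A1 was at 51.9 ± 6.50 CPM, against 125 ± 12.04 and 153 ± 5.78, and MYC at 110 ± 4.75 CPM, against 302 ± 0.196 and 294 ± 2.00. TSC22D3 was higher there, at 14.1 ± 1.21 CPM against 1.53 ± 0.0727 and 3.18 ± 0.0886. These values were looked up after the TXNIP levels were seen, and no test was made across the control groups.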
